A study of Homo sapiens with 10 samples.

Results

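Long intergenic noncoding RNAs (lincRNAs) with numbered LINC symbols were measured by poly-A RNA sequencing in irradiated and control human renal proximal tubular epithelial cells. Genes were chosen by their summed counts. A gene was taken as an expressed lincRNA when its symbol was LINC followed by 5 digits and its raw counts summed to at least 500 over the 10 libraries. This left 225 of the 2271 LINC symbols in the count table, of which 1590 had at least 1 count. The choice used only the total over both groups, which ran from 507 to 149587 counts in the 225, with a median of 1782. LINC02846 with 507, LINC01358 with 511 and LINC01725 with 517 counts lay just inside the limit, and LINC02065 with 495, LINC01593 with 493 and LINC01220 with 492 counts lay just outside.

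The cells were RPTEC/TERT1, a human proximal tubular line immortalised with telomerase, and the study used irradiation to induce senescence in them. The Irradiated group (5 libraries) received 10 Gy of gamma rays and the Control group (5 libraries) was mock-irradiated, and RNA was taken at day 7. The 2 groups carried the same replicate numbers, 1 to 5, and samples with the same number were treated as pairs. All 10 libraries came from the 1 line, and nothing in the labels ties them to separate cultures, so that p-values measure the spread between these samples, which may be technical. Because these were bulk cultures, fewer cells of a type and less RNA per cell cannot be told apart.

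LincRNAs are transcribed by RNA polymerase II from their own promoters, and most are spliced and polyadenylated but not translated into a stable protein. They are usually less abundant and more restricted to particular cell types than messenger RNAs. Some act at the chromatin of genes nearby, some bind proteins or microRNAs in the cytoplasm, and for many no function is known. In DNA damage and senescence, the class is best known for p53-induced and cell cycle-linked members.

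Of the 225 lincRNAs, 66 were higher and 50 were lower after irradiation, while 109 did not pass the test (edgeR quasi-likelihood test with Benjamini-Hochberg adjustment over all 19006 genes tested, threshold 0.05). These shares were 29.3% higher and 22.2% lower, beside 23.9% and 22.7% of all genes tested. Among genes with at least 500 counts they were 25.6% and 24.4%. More than 2-fold changes were seen in 26 lincRNAs that were higher (11.6%) and in 13 that were lower (5.78%). The shares were 5.26% and 4.06% of all genes tested, and 4.78% and 3.83% of those with at least 500 counts. Of the 26, 10 reached 500 counts only through the irradiated libraries, and of the 13, 2 only through the control libraries. The largest rises were those of LINC00973, LINC01411, LINC02904 and LINC01356, and the largest falls those of LINC02593, LINC01572 and LINC00882. The balance depended on the scaling, with 62 higher and 57 lower under upper-quartile scaling and 59 higher and 61 lower by library size only. The 50 lower calls became 30 without replicate 1 and 29 without replicate 4. Over all genes, the calls in both directions together went from 8857 to 7098 and 6619. No test was made of the lincRNAs as a set.

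RefSeq start-site windows (250 bases before to 50 bases after a start, GRCh38.p14) were on hand for 153 of the 225 lincRNAs, as 176 windows because some genes had several starts. The windows of 3 of the 12 largest rises are shown because they hold the AP-1 search pattern TGANTCA, and those of 2 of the 8 largest falls because they do not. With C or G as N, the pattern is the AP-1 element bound by FOS and JUN family dimers. Of the 12, LINC01356, LINC02958, LINC02669, LINC03033 and LINC02901 also had a window, and lacked the element in the one nearest to their start. Each is printed 5′ to 3′ on the strand of the gene, from the window nearest to the gene's GENCODE start. Capitals mark TGANTCA matches, and in LINC01629 also a single 10-base p53 unit that starts at base 66 of the window. Such a unit is only part of a full p53 site. LINC00973 lies on the + strand at chr3:98980805-98981104, LINC01411 on the + strand at chr5:174336104-174336403 and LINC01629 on the + strand at chr14:76959388-76959687. LINC02593 lies on the - strand at chr1:919643-919942, inside the GENCODE gene body with its RefSeq start 1324 bases from the GENCODE start, and LINC00882 on the - strand at chr3:107240589-107240888.
LINC00973: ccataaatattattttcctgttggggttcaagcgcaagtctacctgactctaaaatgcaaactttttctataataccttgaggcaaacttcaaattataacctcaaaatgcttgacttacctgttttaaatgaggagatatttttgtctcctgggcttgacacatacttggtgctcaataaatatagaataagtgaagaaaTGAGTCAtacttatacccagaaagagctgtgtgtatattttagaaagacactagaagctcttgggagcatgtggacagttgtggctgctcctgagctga
LINC01411: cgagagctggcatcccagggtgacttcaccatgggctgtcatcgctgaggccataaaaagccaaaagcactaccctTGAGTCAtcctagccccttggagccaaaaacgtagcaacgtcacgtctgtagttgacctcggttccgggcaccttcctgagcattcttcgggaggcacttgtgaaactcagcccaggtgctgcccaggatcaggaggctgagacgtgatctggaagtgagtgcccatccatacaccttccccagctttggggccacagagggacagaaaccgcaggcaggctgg
LINC01629: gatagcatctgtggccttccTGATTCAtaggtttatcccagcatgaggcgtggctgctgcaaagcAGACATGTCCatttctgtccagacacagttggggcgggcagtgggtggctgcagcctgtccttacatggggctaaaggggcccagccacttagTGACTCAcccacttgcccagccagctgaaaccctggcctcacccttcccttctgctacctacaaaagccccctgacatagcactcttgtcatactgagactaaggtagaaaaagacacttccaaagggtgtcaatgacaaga
LINC02593: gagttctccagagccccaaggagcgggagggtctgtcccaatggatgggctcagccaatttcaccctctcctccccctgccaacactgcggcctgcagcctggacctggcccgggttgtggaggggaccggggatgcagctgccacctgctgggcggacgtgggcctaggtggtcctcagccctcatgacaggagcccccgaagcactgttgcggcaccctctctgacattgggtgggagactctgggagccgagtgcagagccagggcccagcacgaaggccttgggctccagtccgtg
LINC00882: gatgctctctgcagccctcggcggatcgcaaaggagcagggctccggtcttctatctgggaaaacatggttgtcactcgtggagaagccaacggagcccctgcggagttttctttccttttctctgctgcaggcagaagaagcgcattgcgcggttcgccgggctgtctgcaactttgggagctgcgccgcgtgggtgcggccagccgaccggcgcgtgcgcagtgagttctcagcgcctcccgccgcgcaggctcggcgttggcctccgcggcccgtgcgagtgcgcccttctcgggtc

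A TGANTCA match began 49 bases before the start in LINC00973, 174 bases before it in LINC01411, and 230 and 92 bases before it in LINC01629. The match at 230 bases reads TGATTCA, with T as N. Neither of the 2 falling genes had an AP-1, CRE, TATA, E-box, p53 unit or NF-kB match in its window, so nothing is in capitals there. LINC00973 has 4 RefSeq windows, and 3 of them held an AP-1 element.

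Across the lincRNAs more than 2-fold higher, 8 of 23 windows (34.8%) held TGANTCA on either strand, as did 12 of 56 windows (21.4%) of all those that were higher. The share was 9.09% (4 of 44) for those that were lower, 0 of 10 for those more than 2-fold lower, 11.9% for all lincRNA windows and 7.71% for all 35116 windows of the table. Windows of one gene are not independent. Counted by gene, 6 of 18 (33.3%) of the lincRNAs more than 2-fold higher had a TGANTCA match in at least 1 window, beside 9.37% of 27305 genes. They were LINC00973, LINC01411, LINC01629, LINC02901, LINC01094 and LINC00488. All of their matches lay before the start, and N was G, C or T in each. The windows of the strongly rising lincRNAs were also poorer in G and C, with a median GC content of 47.7% beside 58.7% for all windows. Among the 9338 windows of the table at or under that GC content, 13.5% held TGANTCA. These shares are descriptions of short letter matches, not of bound sites.

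The other motifs were searched on both strands in the same 23 windows. The TATA box, searched as TATAAA, was found in 26.1% of them and 11.5% of all windows, but in 29.5% of those at or under the GC limit above. The CHR element TTTGAA was in 26.1%, beside 15.2% of all windows and 33.4% of those under the GC limit, and the GC box GGGCGG in 17.4%, beside 45% and 3.23%. CCAAT was found in 34.8% (34.6% of all), the E-box CACGTG in 4.35% (7.26%) and the NF-kB site in 4.35% (11.3%). At least 1 single 10-base p53 unit was in 8.7% (6.63%). The CRE TGACGTCA, which shares no exact match with TGANTCA, was in 0 of 23 windows and in 1.85% of all.

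LINC00973 (ENSG00000240476, + strand, chromosome 3, 98981058 to 98983096, 2 exons) showed the largest rise. Levels are given in CPM, counts scaled to the library's total over the tested genes after TMM scaling, in the order of replicates 1 to 5. It measured 1.37, 1.95, 0.967, 3.58 and 2.01 CPM in the control libraries and 24.9, 15.6, 35.1, 28.8 and 27.7 CPM in the irradiated libraries. Every irradiated library lay above every control library. The means were 1.97 ± 0.996 and 26.4 ± 7.12 CPM (SD, n = 5 each), and the log2 fold change was 3.78 (SE 0.32, edgeR adjusted p = 9.39e-05).

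LINC01411 (ENSG00000249306, chromosome 5, 174336295 to 174532457, + strand) was low in controls, at 0.171, 0.157, 0.239, 0.195 and 0.210 CPM. After irradiation it measured 2.04, 2.12, 2.55, 2.57 and 2.88 CPM, and the groups did not overlap. The log2 fold change was 3.64 (SE 0.12, adjusted p = 6.52e-06). LINC01356 (chromosome 1, 112820170 to 112850643, - strand) measured 0.196, 0.10, 0.219, 0.0836 and 0.134 CPM in controls and 0.979, 1.10, 0.756, 1.05 and 1.44 CPM in irradiated cells. LINC02958 (chromosome 18, 23957754 to 23982556, - strand) measured 0.0734, 0.315, 0.160, 0.111 and 0.0840 CPM in controls and 0.989, 0.732, 1.05, 1.11 and 1.18 CPM in irradiated cells. Both were separate between groups, with log2 fold changes of 2.88 (SE 0.28, adjusted p = 0.000191) and 2.77 (SE 0.37, adjusted p = 0.000738). These were among 14 lincRNAs with fewer than 250 counts over the 5 control libraries. All 14 were higher and 10 of them more than 2-fold, since a gene so low in controls reached 500 counts only through the irradiated libraries. In the other direction, 11 lincRNAs had fewer than 250 counts over the irradiated libraries, of which 7 were lower and 2 more than 2-fold lower.

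LINC03033 (ENSG00000232774, chromosome 14, 61570405 to 61658696, + strand) overlaps the body of a protein-coding gene of the same strand. It measured 2.34, 0.973, 2.30, 2.45 and 1.72 CPM in controls and 11.7, 5.94, 19.4, 9.62 and 9.59 CPM after irradiation, a log2 fold change of 2.49 (SE 0.15, adjusted p = 3.28e-05). LINC01629 (ENSG00000258602, chromosome 14, 76959636 to 76965802, + strand, 3 exons) measured 2.50, 7.59, 1.54, 6.03 and 4.75 CPM in controls and 14.5, 18.0, 18.0, 20.3 and 18.3 CPM in irradiated cells. Control replicates 1 and 3 were the lowest, and the irradiated libraries were closely grouped. Its log2 fold change was 2.16 (SE 0.30, adjusted p = 0.000869).

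LINC01559 (chromosome 12, 13371089 to 13387167, - strand) also had its lowest control values in replicates 1 and 3, with 3.84, 5.35, 2.38, 5.84 and 4.70 CPM in controls and 14.2, 13.8, 15.7, 18.4 and 15.5 CPM after irradiation (log2 fold change 1.86, SE 0.18, adjusted p = 0.000169). LINC02582 (chromosome 18, 73324941 to 73349879, + strand) was the most abundant of the 12, at 10.8, 13.1, 23.1, 18.2 and 14.3 CPM in controls and 54.0, 31.4, 79.2, 55.7 and 46.8 CPM after irradiation. Replicate 3 was highest and the irradiated value was lowest in replicate 2, but the groups did not overlap (log2 fold change 1.73, SE 0.13, adjusted p = 6.54e-05). The other 4 of the 12, LINC02904 (3.15), LINC02669 (2.67), LINC00475 (2.36) and LINC02901 (2.05 on the log2 scale), had control means of 0.145 to 0.457 CPM and irradiated means of 1.30 to 2.34 CPM. In each of these, too, all irradiated libraries lay above all control libraries. In LINC02904, 21.0% of the exon length lies under exons of the opposite strand.

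**Figure D1:**
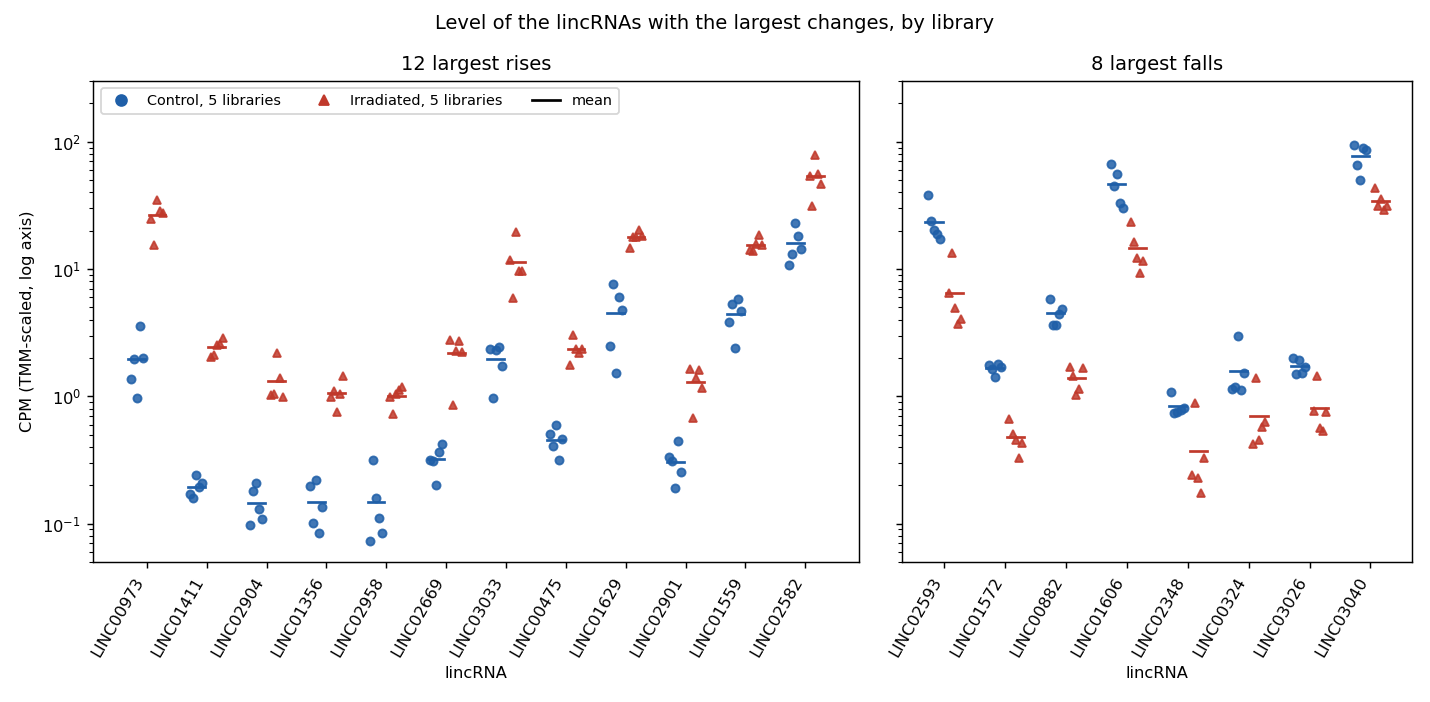
Level of the 12 lincRNAs with the largest rises (left) and the 8 with the largest falls (right), as TMM-scaled CPM on a log axis, with 1 point per library (circles Control, triangles Irradiated, 5 each) and bars at the means. All 12 rises separate the groups, whereas in LINC02348 and LINC00324 one irradiated library, replicate 2 (0.881 and 1.39 CPM), sits among the controls. Several of the rises were low in controls and passed the count limit only through the irradiated libraries.

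Among the falls, LINC02593 (ENSG00000223764, chromosome 1, 916865 to 921016, - strand, 4 exons) changed most. It measured 38.1, 23.9, 20.1, 18.7 and 17.1 CPM in controls and 6.52, 13.3, 4.92, 3.67 and 4.06 CPM after irradiation. The groups did not overlap, although irradiated replicate 2 stood well above the other irradiated libraries. The log2 fold change was -1.97 (SE 0.23, adjusted p = 0.000411).

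LINC01572 (chromosome 16, 72236281 to 72665014, - strand, 14 exons) fell from 1.76, 1.65, 1.41, 1.80 and 1.71 CPM to 0.666, 0.508, 0.454, 0.327 and 0.430 CPM. Its log2 fold change was -1.82 (SE 0.16, adjusted p = 0.000127). LINC00882 (chromosome 3, 106630469 to 107240671, - strand, 10 exons) fell from 5.83, 3.64, 3.64, 4.40 and 4.87 CPM to 1.70, 1.45, 1.02, 1.14 and 1.66 CPM, a log2 fold change of -1.69 (SE 0.11, adjusted p = 4.21e-05). In both genes all 5 irradiated libraries lay below all 5 control libraries. LINC01606 was more abundant, at 67.1, 45.3, 56.0, 33.2 and 30.4 CPM in controls and 23.4, 16.4, 12.3, 9.35 and 11.5 CPM after irradiation (log2 fold change -1.68, SE 0.12, adjusted p = 4.84e-05). LINC03040 (chromosome 6, 44000580 to 44007612, + strand) fell from 94.4, 65.7, 49.7, 88.5 and 85.9 CPM to 43.4, 31.5, 35.7, 29.1 and 31.4 CPM (log2 fold change -1.14, SE 0.15, adjusted p = 0.000646). LINC03026 (-1.16, adjusted p = 0.00596) also separated the groups.

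LINC02348 (-1.31, adjusted p = 0.0186) and LINC00324 (-1.19, adjusted p = 0.0299) were weaker. LINC00324 (ENSG00000178977, chromosome 17, 8220624 to 8224043, - strand) measured 1.15, 1.17, 2.97, 1.12 and 1.51 CPM in controls and 0.424, 1.39, 0.454, 0.577 and 0.633 CPM after irradiation. Control replicate 3 and irradiated replicate 2 were the high values, and in replicate 2 the irradiated library was above its control. The call was lost without replicate 1, 3, 4 or 5, with adjusted p between 0.0504 and 0.0893. The log2 fold change was -1.14, -1.26 and -1.17 without replicate 1, 4 or 5, but -0.80 without replicate 3 and -0.62 without replicates 1 and 3. LINC02348 lost its call without replicate 1, 4 or 5, with adjusted p between 0.056 and 0.0699.

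Of the 66 lincRNAs that were higher, 65 (98.5%) were higher in all 5 pairs, beside 94.8% of all genes called higher. Of the 50 that were lower, 43 (86%) were lower in all 5 pairs, beside 91.5% of all genes called lower. The calls came from a test on the same pairs, so these shares describe the calls and do not support them. All 5 irradiated libraries lay above all 5 control libraries in 45 lincRNAs (20%), beside 14.6% of all genes, and below them in 27 (12%), beside 12%. Of the 109 that did not pass the test, 70 had a 95% interval of the log2 fold change within 0.5 in either direction, while in 5 the interval reached 1 or -1. At an unadjusted p under 0.05 there were 129 lincRNAs. The median log2 fold change was 0.02 for the lincRNAs and -0.01 for all genes tested, and the median absolute log2 fold change was 0.35 and 0.23.

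**Figure D2:**
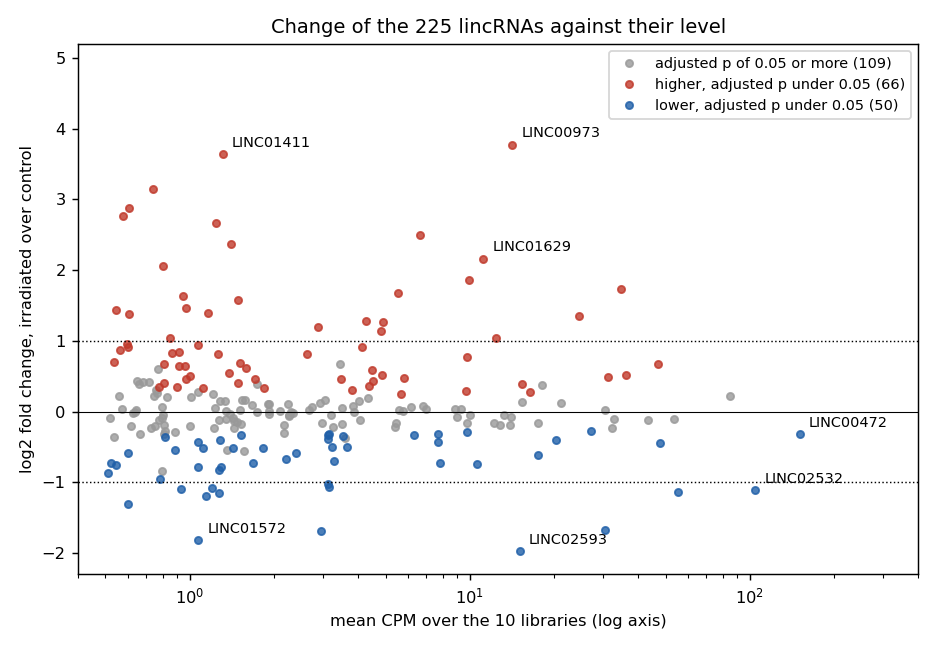
Log2 fold change (irradiated over control) of the 225 lincRNAs against mean CPM over the 10 libraries on a log axis, 1 point per gene, with dotted lines at 2-fold. The 66 higher (red) and 50 lower (blue) lincRNAs are spread over the whole range of levels, and the changes extend from -1.97 (LINC02593) to 3.78 (LINC00973).

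By level, 60 lincRNAs had a mean under 1 CPM, with 22 higher (36.7%) and 9 lower (15%), beside 15.9% and 14.4% of the 4632 tested genes at that level. Those genes include ones with at least 200 but fewer than 500 counts, and the count limit acted on the scarce lincRNAs as described above. Between 1 and 10 CPM lay 129 lincRNAs, with 34 higher (26.4%) and 31 lower (24%), beside 22.9% and 24.2% of genes. Of the 36 at 10 CPM or more, 10 were higher and 10 lower (27.8% each), beside 28.3% and 25.9% of genes.

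The 2 lincRNAs with the most counts were both lower after irradiation. Together the 225 held 0.142% to 0.194% of all counts of a library. LINC00472 (ENSG00000233237, chromosome 6, 71187161 to 71420745, - strand), described as tumour-suppressive in breast cancer, had the most counts and took 7.40% to 11.1% of lincRNA counts. It measured 195, 151, 141, 178 and 171 CPM in controls and 146, 133, 115, 125 and 152 CPM after irradiation. It was lower in all 5 pairs although the groups overlapped (log2 fold change -0.32, SE 0.06, adjusted p = 0.00391). LINC02532 (chromosome 6, 106705328 to 106788148, - strand), singled out after its values were seen as the second most abundant, measured 241, 87.9, 133, 133 and 126 CPM in controls and 101, 59.0, 55.3, 47.6 and 63.4 CPM after irradiation. It fell by 1.11 on the log2 scale (SE 0.12, adjusted p = 0.000274), with control replicate 1 far above the other controls and irradiated replicate 1 above 1 control. The 5 most abundant lincRNAs of each library took 25.1% to 36.1% of lincRNA counts.

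Levels of different genes were compared per kb of exon (CPM per kb, GENCODE 44 exons). Of the 8 lincRNAs with the highest values, 4 (LINC00674, LINC01145, LINC00680 and LINC00888) are annotated as transcribed pseudogenes with a later version of the gene identifier than in the count table, so their lengths may not be those counted and only their CPM is used. LINC02274, LINC01111, LINC03061 and LINC01629 had the identifier versions of the count table. In controls they stood at 22.5, 27.2, 16.0 and 6.25 CPM per kb, and after irradiation at 30.7, 25.1, 17.5 and 24.9 CPM per kb. LINC01629 was below the other 3 in controls and close to LINC01111 after irradiation. LINC02274 measured 24.7, 14.7, 38.5, 28.3 and 25.7 CPM in controls and 43.9, 26.9, 42.7, 32.8 and 34.0 CPM after irradiation. It was higher in every pair although its groups overlapped (log2 fold change 0.49, SE 0.12, adjusted p = 0.0107 with the pairs and 0.122 without the replicate block).

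LINC01111 did not pass the test, at 45.2 ± 4.08 CPM in controls and 41.7 ± 2.28 CPM after irradiation (SD, n = 5 each, 95% interval of the log2 fold change -0.22 to -0.01, adjusted p = 0.0735). It passed under upper-quartile scaling (adjusted p = 0.0227) and by library size only (0.0091). LINC03061 measured 67.7, 63.6, 151, 63.6 and 61.6 CPM in controls and 88.6, 85.9, 96.1, 88.1 and 85.7 CPM after irradiation. Control replicate 3 alone was above the irradiated libraries, and the log2 fold change was 0.23 (SE 0.16, adjusted p = 0.291). Without replicate 3 it was 0.45 (adjusted p = 0.000203). LINC00674, at 10.2 ± 0.626 and 9.86 ± 0.743 CPM, and LINC00888, at 9.18 ± 0.574 and 9.39 ± 0.784 CPM (SD, n = 5 each), did not pass the test, with 95% intervals of -0.20 to 0.10 and -0.12 to 0.18. LINC01145 was higher (log2 fold change 0.47, adjusted p = 0.00485), but 61.5% of its exon length lies under exons of the opposite strand.

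A list of 18 lincRNAs with published roles, mainly in tumours, had 8 members among the 225, of which 3 were higher, 2 were lower and 3 did not pass the test, too few to set against the 29.3% and 22.2% of all 225. LINC01605 was higher by 1.47 (SE 0.23, adjusted p = 0.00161), LINC00958 by 0.67 (SE 0.06, adjusted p = 9.65e-05) and LINC00665 by 0.51 (SE 0.09, adjusted p = 0.00222) on the log2 scale. LINC00958 measured 35.4, 37.1, 33.1, 38.4 and 36.8 CPM in controls and 59.9, 51.1, 57.4, 59.1 and 59.9 CPM after irradiation, and its groups did not overlap. LINC00472 and LINC01116 (log2 fold change -0.28, SE 0.08, adjusted p = 0.0274) were lower. LINC01116 lost its call without replicate 1, 4 or 5, with adjusted p between 0.0894 and 0.121, and without the replicate block (0.0976). LINC00511, linked to proliferation of cancer cells, had a 95% interval of -0.21 to 0.00 and passed under upper-quartile scaling (adjusted p = 0.0441) and by library size only (0.016). LINC00467 had an interval of -0.16 to 0.23 and LINC00963 one of -0.37 to 0.15. Of the other 10, LINC00346, LINC00673 and LINC00908 had no row under these symbols, and 7 fell under the limit, from LINC00941 with 0 counts to LINC00460 with 357.

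The lincRNAs were compared with other long noncoding RNA classes named in the same system, at the same limit of 500 counts. Antisense RNAs (symbols ending in AS and a digit, 516 genes) were higher in 19.2% and lower in 21.3%. Divergent transcripts (ending in DT, 218 genes), which start beside a coding gene's promoter, were higher in 13.8% and lower in 28.9%. Host genes of small RNAs (53 genes) were higher in 17.0% and lower in 32.1%. For all 2194 genes of lncRNA type the shares were 19.7% and 19.1%, and for 12939 protein-coding genes 27.1% and 26.1%. More than 2-fold rises made up 11.6% of the lincRNAs, 6.11% of all lncRNA genes and 4.61% of protein-coding genes. Of the 26 lincRNAs behind the 11.6%, 10 reached 500 counts only through the irradiated libraries. Such genes were not counted in the other classes. These are counts without a test of the difference between classes, and classes differ in level.

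**Figure D3:**
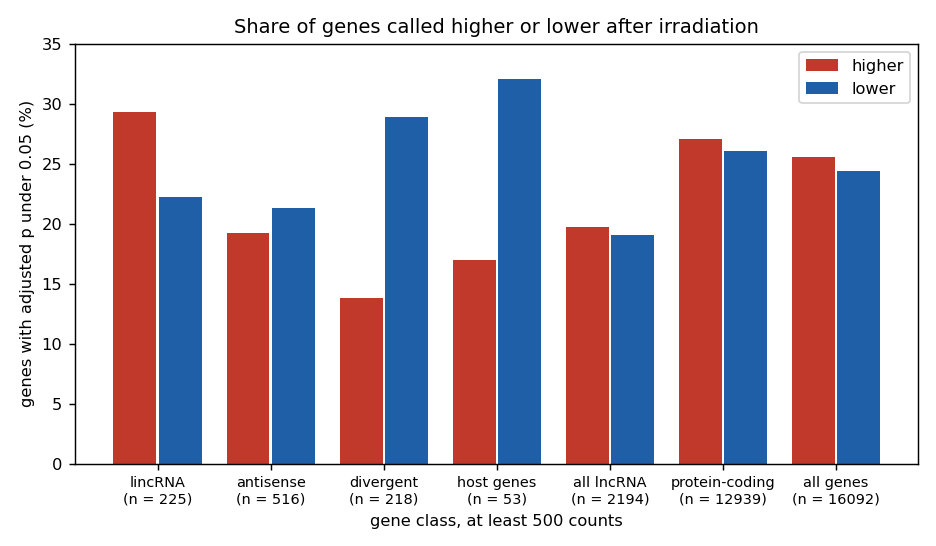
Percentage of genes of each class, among those with at least 500 counts, that were higher (red) or lower (blue) after irradiation at an adjusted p under 0.05. The lincRNA bars stand at 29.3% and 22.2%, and the divergent transcripts show the opposite balance, 13.8% and 28.9%.

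The lincRNAs had short and sparsely spliced transcripts beside protein-coding genes, but not beside other lncRNA genes. Their canonical transcripts had a median of 3 exons and 1661 bases, beside 2 exons and 1268 bases for the 3574 lncRNA genes tested and 9 exons and 3349 bases for the 13736 protein-coding genes tested. Median exonic GC content was 48.1%, 48.2% and 48.4%. Their median level was 0.605 CPM per kb, against 0.469 for lncRNA genes and 4.39 for protein-coding genes. The median coefficient of variation between replicates was 19.3% in controls and 15.1% in irradiated cells, beside 11.5% and 8.39% for protein-coding genes. All these medians set lincRNAs with at least 500 counts beside genes with at least 200, so the limits are unlike. GENCODE 44 carried the same identifier version as the count table for 151 of the 225, and another for 74, whose lengths may differ from those counted.

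The name intergenic held for most of them. No protein-coding gene body overlapped 192 of the 225, while 33 overlapped one, 16 on the same strand and 19 on the opposite strand. By annotation 215 were lncRNA genes and 10 transcribed pseudogenes. Exons of the opposite strand covered some exon of 80 lincRNAs, and more than 20% of the exon length of 19. Of the 425 lncRNA genes lying wholly under opposite-strand exons, 97.9% had 0 counts, beside 28.8% of the 12007 with no such exon, so that overlapped exons counted little or not at all. Another 18 started within 5 kb after the end of a protein-coding gene of their strand, where read-through transcripts cannot be told apart from the lincRNA, and 5 of these were higher (27.8%) and 3 lower (16.7%), beside 23.9% and 22.7% of all genes.

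The nearest tested protein-coding gene started at a median of 72.1 kb from the lincRNA, and within 100 kb for 125 of the 225. Near the 31 lincRNAs that were higher, 12 neighbours were higher (38.7%) and 5 lower (16.1%). Near the 31 that were lower, 3 neighbours were higher (9.68%) and 16 lower (51.6%). Beyond 100 kb, 20 of the 35 neighbours of higher lincRNAs were higher (57.1%) and 7 lower (20%), and of the 19 neighbours of lower lincRNAs 5 were higher (26.3%) and 6 lower (31.6%). For higher lincRNAs, the share of higher neighbours was smaller within 100 kb than beyond it (38.7% and 57.1%). For lower lincRNAs, the share of lower neighbours was larger within 100 kb than beyond it (51.6% and 31.6%). These differences were not tested. The shares of all tested protein-coding genes were 26.8% higher and 25.6% lower. The log2 fold changes of lincRNA and neighbour correlated with Pearson's r = 0.35 over these 125 pairs and r = 0.34 over the 100 pairs further apart. The pairs come from the same libraries and some share a neighbour, so that r is a description.

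**Figure D4:**
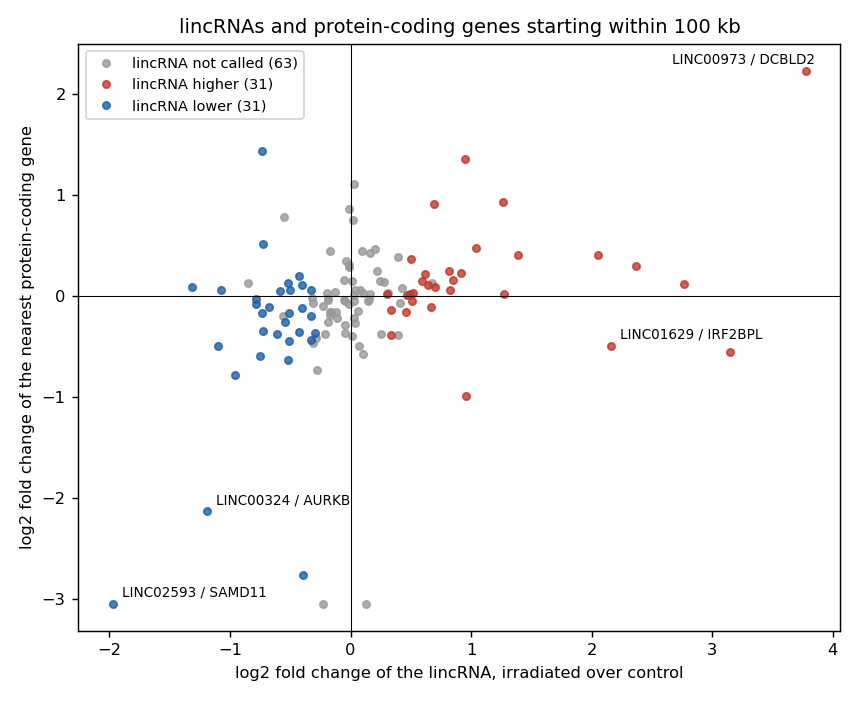
Log2 fold change (irradiated over control) of the nearest protein-coding gene against that of the lincRNA, for the 125 pairs with starts within 100 kb, 1 point per pair, coloured by the lincRNA's call. LINC00973 with DCBLD2 lies at the top right (3.78, 2.23), LINC02593 with SAMD11 at the bottom left (-1.97, -3.05), and LINC01629 with IRF2BPL shows opposite directions (2.16, -0.49).

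Several of the strongest changes had neighbours that moved far. DCBLD2, a transmembrane receptor of the neuropilin-like kind starting 79.4 kb from LINC00973, rose from 535 ± 155 to 2482 ± 481 CPM (SD, n = 5 each, log2 fold change 2.23, adjusted p = 6.57e-05). SAMD11 starts 2907 bases from LINC02593 on the opposite strand and fell from 31.9 ± 8.40 to 4.78 ± 4.39 CPM (SD, n = 5 each, log2 fold change -3.05, adjusted p = 0.000362). AURKB, the mitotic kinase starting 13.4 kb from LINC00324 on the same strand, had a log2 fold change of -2.13 (adjusted p = 0.00177). In each of these pairs both genes changed in the same direction.

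Further away, KLF6, a zinc finger transcription factor 282 kb from LINC02669, was higher by 1.45 on the log2 scale (adjusted p = 2.90e-05). NETO1, an auxiliary glutamate receptor subunit 457 kb from LINC02582, was higher by 2.59 (adjusted p = 0.000131). In other pairs the directions parted. IRF2BPL, 69.1 kb from LINC01629, had a log2 fold change of -0.49 (adjusted p = 0.000207). TMEM63B, an ion channel gene 126 kb from LINC03040, was higher by 0.80 (adjusted p = 2.34e-05), and BBX, 282 kb from LINC00882, did not pass the test (log2 fold change -0.05, adjusted p = 0.41).

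In 13 lincRNAs the start lay head-to-head with that of a tested protein-coding gene within 2 kb, at 54 to 1846 bases. This arrangement can place both starts in 1 promoter region. Of the 13, 1 was higher (7.69%) and 3 were lower (23.1%), beside 23.9% and 22.7% of all genes, and the difference was not tested. The 6 closest pairs were LINC01134 with C1orf174 (54 bases), LINC01547 with SLX9 (84), LINC01089 with SETD1B (103), LINC01301 with RAB2A (121), LINC02245 with CEP68 (128) and LINC00205 with POFUT2 (137 bases). Of these 6 only LINC01089 passed the test (log2 fold change -0.43, adjusted p = 0.0165), and its partner SETD1B, a histone methyltransferase, was also lower (-0.36, adjusted p = 0.000475), with 57.9% of the LINC01089 exon length under opposite-strand exons. Chosen after their values were seen, LINC01126 with ZFP36L2 (-0.75 and -0.59) and LINC00938 with ARID2 (-0.30 and -0.36) were the other pairs lower in both genes.

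The control libraries were not uniform. The mean log2 CPM of 10 cell cycle genes was 4.33 and 4.29 in control replicates 1 and 3, 5.63 to 5.70 in control replicates 2, 4 and 5, and 3.15 to 3.75 in the irradiated libraries. Of the 10, 9 were lower after irradiation, and of 10 p53 target genes 9 were higher. In 34 lincRNAs (15.1%, beside 20.7% of all genes) control replicates 1 and 3 were both below the other controls, and in 53 (23.6%, beside 17.8%) both above. Of the 34, 13 were higher after irradiation (38.2%, beside 31.3% of all genes with that order), and of the 53, 14 were lower (26.4%, beside 32.3%). The 13 included LINC00973, LINC01629, LINC01559, LINC00958 and LINC01127, and the 14 included LINC01606, LINC02532 and LINC03026. Without replicates 1 and 3, the counts were 59 higher, 34 lower, 24 more than 2-fold higher and 6 more than 2-fold lower. The part of the uneven controls in these results was not tested.

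Renal epithelial markers (PAX8, PAX2, EPCAM, CDH1, KRT8, KRT18 and KRT19) were all expressed, at a summed level of 2910 to 4285 CPM. Of 8 proximal tubule markers, 5 had at least 200 counts. These were ANPEP (268713 counts), GGT1 (10995), CUBN (4449), AQP1 (1506) and SLC5A2 (253). LRP2 (17 counts), HNF4A (12) and SLC34A1 (86) were close to absent. The markers were thus mixed, and the label proximal tubular is taken from the line's origin. Summed fibroblast markers were 15.9 to 23.5 CPM in controls and 28.6 to 40.0 CPM after irradiation, most of it COL1A1. DCN stood at 0.110 to 0.522 CPM in controls and 0.454 to 4.45 CPM after irradiation. COL3A1 had 4 counts over all libraries. Endothelial markers summed to 1.29 to 2.40 and 4.15 to 6.07 CPM, and leukocyte markers to 0.269 to 0.648 and 0.305 to 0.680 CPM. Of the endothelial markers, CDH5 stood at 0.361 to 0.984 CPM in controls and 1.85 to 4.24 CPM after irradiation. PECAM1 had 1094 counts, VWF 402 and KDR 2.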

How the data were processed

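Raw read counts per gene were deposited by the authors as one table of 61587 identifiers and 10 libraries, made from poly-A RNA with STAR on hg38; the aligner's version and the annotation release are not given in the sources used here. The labels name a TruSeq kit and the study's methods another, and neither setting of strand is given. The labels number the cell line RPTEC/TERT1 upward by 1 per sample; all were taken as 1 line. Totals ran from 66269311 to 131555873 counts per library. Symbols were matched for 61415 identifiers, and 46 second-copy rows of the Y chromosome (8 counts) were left out.

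The counts were tested with edgeR 4.0.16 (R 4.3.3; TMM, quasi-likelihood F test, replicate number as a block as in the study's model) over the 19006 genes with at least 200 counts. Standard errors were derived from each log2 fold change and its F statistic. The replicate numbers were treated as pairs because deviations from the group means correlated by 0.51, 0.22, 0.34, 0.39 and 0.35 within replicates 1 to 5. Across numbers, control replicate 5 with irradiated replicate 4 (0.32) and control replicate 4 with irradiated replicate 5 (0.30) exceeded the value of replicate 2. No 2 libraries of a group were within sampling noise of each other. On simulated counts the test was checked first. Alternatives were DESeq2, limma-voom, other scalings and filters, no block, left-out replicates and other count limits. Positions and exons came from GENCODE 44 (GRCh38), promoter windows from RefSeq GRCh38.p14. The genes and lists were chosen with earlier results of these data known. Named were the 12 largest rises, the 8 largest falls, the 8 highest per kb, the genes at the count limit, the role list and the neighbours of these; others are marked where they appear.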

Additional observations from a re-analysis of the deposited data

Results flagged for a closer look

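For each of the 38 lincRNAs named by rule, both groups of 5 libraries were searched for a single library far from the rest, with a gap to its nearest neighbour of more than 0.71 of the group's range. Of 76 groups, 10 had one, where chance gives about 1 in 20, or 3.8. Irradiated replicate 2, the library with the fewest counts, was the distant one in 5 of them and control replicate 3 in 3.

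Irradiated replicate 2 was low for LINC02669, at 0.851 CPM beside 2.23 to 2.79 in the others, and for LINC00958, at 51.1 beside 57.4 to 59.9 CPM. It was high for 3 lincRNAs that were lower after irradiation. In LINC02348 it stood at 0.881 CPM beside 0.174 to 0.328, in LINC00324 at 1.39 beside 0.424 to 0.633, and in LINC03026 at 1.45 beside 0.533 to 0.767 CPM. In all 5 it lay on the side of the control libraries.

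Control replicate 3 was high for LINC03061, at 151 CPM beside 61.6 to 67.7, and for LINC00324, at 2.97 beside 1.12 to 1.51. It was low for LINC00665, at 24.4 beside 30.7 to 31.9 CPM. Irradiated replicate 3 was also high for LINC03061, at 96.1 beside 85.7 to 88.6 CPM. Control replicate 1 was high for LINC02348, at 1.08 beside 0.737 to 0.815 CPM.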

How the results depend on the processing

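The direction of every lincRNA called held wherever it was called under another setting, with 0 calls in the opposite direction. Leaving out replicates gave 53 to 66 higher, 29 to 53 lower, 24 to 27 more than 2-fold higher and 7 to 15 more than 2-fold lower. The low values were 30 lower without replicate 1, 29 without replicate 4, and 7 more than 2-fold lower without replicate 3. Calls over all genes went from 8857 to 7098 without replicate 1 and 6619 without replicate 4. The share of calls that were higher was then 52.5% and 54.4% over all genes, and 65.9% and 66.3% over the lincRNAs. Without replicates 1 and 3 together, 6 were more than 2-fold lower. Without the replicate block, the counts were 54 higher, 40 lower, 25 and 13 more than 2-fold, and LINC02274 (0.45) and LINC01116 (-0.29) lost their calls; it changed no other call of the named lincRNAs. With a limit of 200 counts, 41 of 331 lincRNAs were more than 2-fold higher and 21 more than 2-fold lower. With a limit of 1000 counts, 43 of 163 were higher and 17 more than 2-fold higher.

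Scaling by library size only moved the median of the lincRNAs to -0.0566 and that of all genes to -0.09, and the share of calls that were higher from 51.4% to 38% over all genes and from 56.9% to 49.2% over the lincRNAs. LINC01111 (-0.15 and -0.19) and LINC00511 (-0.14 and -0.18) gained a call under upper-quartile and library-size scaling. Signs turned only for named lincRNAs that did not pass the test: LINC00674 (-0.0632 to 0.0014 over left-out replicates), LINC00888 (-0.0018 with upper-quartile scaling, -0.0451 by library size, -0.0043 with a minimum of 1 count), LINC00467 (-0.0405 by library size, -0.0194 to 0.1009 over left-out replicates, -0.0547 without replicates 1 and 3) and LINC00963 (0.0869 without replicates 1 and 3). Library size and upper-quartile scaling of the group separation, added after seeing the data, gave 36 and 41 above. The cause of these shifts was not tested. Arms of 5 libraries and lincRNAs near 500 counts limit what small changes could be called.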
